A study of Homo sapiens with 5 samples.

Results

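The band 6p22 on the short arm of chromosome 6 holds the main cluster of replication-dependent histone genes and the largest cluster of tRNA genes of the human genome. The segment studied here ran from position 26000000 to 28900000 of chromosome 6 (hg19), a length of 2.9 Mb. Its members were the peaks whose centre lay in it in 3 deposited chromatin immunoprecipitation (ChIP-seq) peak lists, with no use of the scores. They numbered 931 of 194759 peaks in all: 437 of 94237 ASXL1 peaks, 162 of 21697 FOXK1 peaks and 332 of 78825 O-GlcNAc peaks. ChIP-seq sequences the DNA that an antibody pulls down with a chosen protein or modification, and a peak is a place with more sequenced tags than the input control.

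The cells of every library were Flp-In HEK293 T-REx, an established human embryonic kidney line that carries a recombination site for transgenes and a tetracycline repressor. The labels name no treatment and no transgene. There was 1 library for each antibody, so no difference has a replicate check. The ASXL1 and O-GlcNAc libraries and their input were made from chromatin preparation 63, and the FOXK1 library and its input from preparation 62, so FOXK1 and preparation 62 cannot be told apart.

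ASXL1 binds BAP1, an enzyme that removes ubiquitin from histone H2A. FOXK1 is a forkhead transcription factor that also associates with BAP1, and O-GlcNAc is a sugar that the enzyme OGT attaches to serine and threonine residues of nuclear proteins. Replication-dependent histone genes are short, lack introns and are transcribed in S phase to supply histones for new DNA. Their promoters are known for a TATA box and, in several families, CCAAT boxes. tRNA genes are transcribed by RNA polymerase III from promoter elements inside the gene.

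The peak lists carry no gene names, and no gene annotation of hg19 was used here, so the name of the segment rests on its rule and no peak was assigned to a gene. Gene content is known here only from the RefSeq table of another build, GRCh38.p14, which was used for names and order. That table lists 55 protein-coding histone genes of the HIST1 family on chromosome 6: 6 of H1, 12 of H2A, 15 of H2B, 10 of H3 and 12 of H4. It lists 155 tRNA genes on chromosome 6, which are 33.3% of its 465 tRNA genes, and 98 of these lie between the first histone gene, H2AC1, and the last, H2BC17. Among 74 protein-coding genes in that stretch are 6 butyrophilins (BTN genes), membrane proteins of the immunoglobulin superfamily. That stretch is not the segment, whose limits were not placed on GRCh38.p14, so none of these counts is a count of the segment's genes.

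RefSeq promoters, from 250 bases before to 50 bases after the gene's start, were found for 50 of the 55 histone genes. Below are the 120 bases before the start of 1 gene per family, the first with an entry from H1-1 on in the table's order, shown because these families give the segment its name. Capitals mark CCAAT or, as part of the TATA box, the letters TATAA, each also as its reverse complement. The sequences are RefSeq's, read 5′ to 3′ on the gene's strand, and their GRCh38.p14 positions are not on the scale of the peak positions.
H1-1 (chr6:26017788-26017907, minus strand): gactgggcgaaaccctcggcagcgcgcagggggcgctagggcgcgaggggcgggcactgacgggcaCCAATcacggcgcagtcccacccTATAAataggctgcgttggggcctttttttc
H2AC4 (chr6:26033619-26033738, minus strand): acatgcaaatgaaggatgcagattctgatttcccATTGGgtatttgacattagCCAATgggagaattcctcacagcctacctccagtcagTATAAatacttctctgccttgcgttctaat
H2BC3 (chr6:26043714-26043833, minus strand): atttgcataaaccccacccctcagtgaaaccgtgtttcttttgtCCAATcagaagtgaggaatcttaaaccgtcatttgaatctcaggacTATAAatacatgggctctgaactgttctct
H3C1 (chr6:26020331-26020450, plus strand): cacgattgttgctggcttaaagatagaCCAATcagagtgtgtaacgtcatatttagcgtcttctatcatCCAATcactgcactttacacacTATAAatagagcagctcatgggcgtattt
H4C2 (chr6:26027284-26027403, minus strand): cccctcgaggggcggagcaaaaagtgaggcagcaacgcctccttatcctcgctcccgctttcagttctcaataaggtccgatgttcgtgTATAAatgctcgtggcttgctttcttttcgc

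TATAA, on either strand, was present in 49 of the 50 histone promoters (98.0%) and in 20.4% of the 35116 promoters of the whole table. CCAAT was present in 43 of the 50 (86.0%), against 34.6% of all promoters. Every promoter found for the H1, H2A, H2B and H3 genes held CCAAT, and 3 of 10 H4 promoters did. The stretch shown for H4C2 holds TATAA alone. The forkhead core GTAAACA was present in 2 of the 50 (4.00%), close to the 3.42% of all promoters. A match is a run of letters and not a measured binding site.

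Peaks of all 3 lists were denser in the segment than in the rest of chromosome 6. ASXL1 had 151 peaks per Mb in the segment against 38.5 in the rest of the chromosome, a ratio of 3.91 (95% exact binomial interval 3.54 to 4.31). FOXK1 had 55.9 against 10.6 peaks per Mb, a ratio of 5.28 (4.47 to 6.20). O-GlcNAc had 114 against 39.5 peaks per Mb, a ratio of 2.90 (2.59 to 3.24). The segment made up 1.70% of the chromosome and held 6.33% of its ASXL1, 8.35% of its FOXK1 and 4.76% of its O-GlcNAc peaks. The intervals here and below cover counting error only, since peaks are not replicates and the depth of the libraries is unknown. The order of the 3 ratios differed when each list was cut to its 10000 highest scores. ASXL1 then had the highest ratio, 17.3, followed by O-GlcNAc with 11.6 and FOXK1 with 8.03. The cut changes both the length and the lowest score of a list, and the part of each was not tested.

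When chromosomes 1 to 22 and X were divided into 1031 consecutive windows of the segment's length, with the segment as 1 of them, the segment held the most peaks of each list. The windows of chromosome 6 were laid out to match the segment, and those of other chromosomes ran from the chromosome's start. Dense stretches elsewhere may thus be split between windows, and other placements were not tried. In the median window there were 78 ASXL1, 18 FOXK1 and 71 O-GlcNAc peaks. The next highest window held 394 ASXL1 peaks and lay on chromosome 19. For FOXK1 the next highest held 104 peaks, on chromosome 5, and for O-GlcNAc it held 268, on chromosome 1. The segment also held 104 merged regions with peaks of all 3 lists (a merged region is a group of peaks linked by overlaps between lists), against a median of 5 per window and 33 in the next highest.

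**Figure D1:**
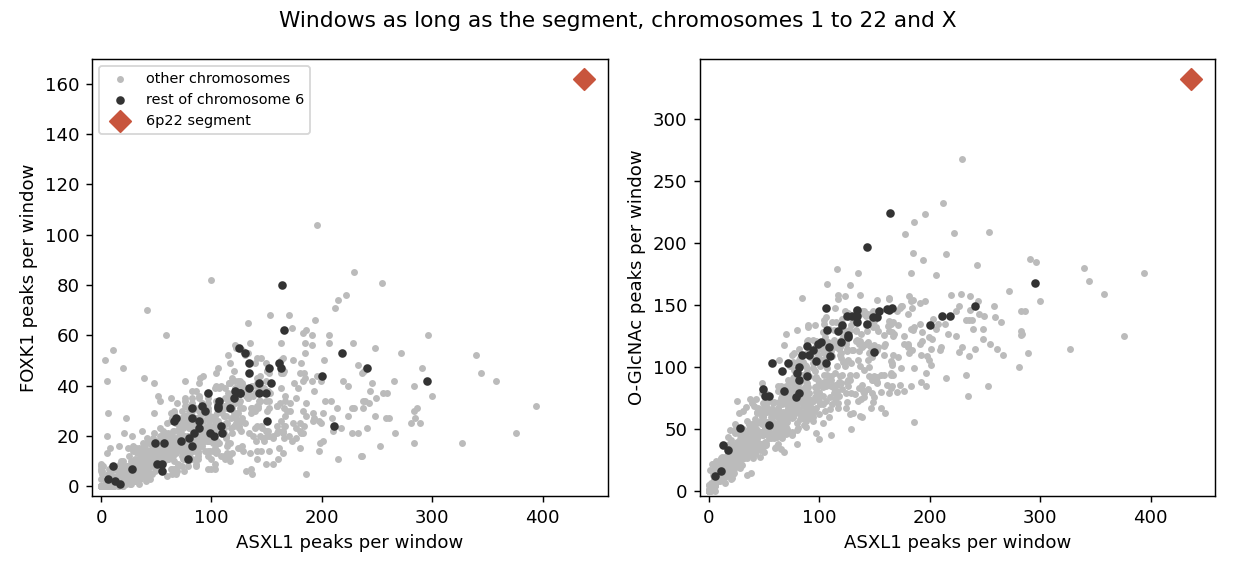
Peaks per window of the segment's length along chromosomes 1 to 22 and X, with ASXL1 on the x axes and FOXK1 (left) or O-GlcNAc (right) on the y axes. Each point is 1 of 1031 windows, and the diamond is the 6p22 segment, with 437 ASXL1, 162 FOXK1 and 332 O-GlcNAc peaks, above and to the right of every other window.

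The stretch from 29 to 34 Mb of chromosome 6, next to the segment, which holds the major histocompatibility region, was also dense in ASXL1 but less so. It had 97.2 ASXL1, 14.2 FOXK1 and 55.4 O-GlcNAc peaks per Mb. Without it in the comparison, the density ratio was 4.11 (ASXL1), 5.33 (FOXK1) or 2.93 (O-GlcNAc).

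Peaks lay unevenly along the segment. Its 29 windows of 100 kb held 0 to 27 ASXL1 peaks (median 16), 0 to 14 FOXK1 peaks (median 5) and 0 to 21 O-GlcNAc peaks (median 13). The same windows in the rest of the chromosome had medians of 3, 1 and 3 peaks in that order. Of those 1680 windows, 2.74% reached the segment's median number of ASXL1 peaks, 3.75% that of FOXK1 and 1.37% that of O-GlcNAc. Single windows elsewhere on the chromosome were denser, with up to 37 ASXL1, 16 FOXK1 and 22 O-GlcNAc peaks. Of the regions with all 3 targets, the densest window outside the segment held 5 and the densest inside held 11.

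The window from 28.7 to 28.8 Mb held the most FOXK1 peaks (14), O-GlcNAc peaks (21) and shared regions of all 3 targets (11), and 27 ASXL1 peaks. The window from 26.5 to 26.6 Mb held as many ASXL1 peaks, 27, beside 13 of FOXK1, 19 of O-GlcNAc and 9 regions of all 3. The window from 28.8 to 28.9 Mb was the third densest for ASXL1, with 26 peaks, but held 4 FOXK1 peaks. FOXK1 was also dense from 26.2 to 26.3 Mb and from 26.3 to 26.4 Mb, with 12 peaks in each. O-GlcNAc had 20 peaks from 27.2 to 27.3 Mb, where FOXK1 had 8. Across the 29 windows, Spearman's rho of the peak numbers was 0.880 for FOXK1 and O-GlcNAc, 0.663 for ASXL1 and FOXK1 and 0.651 for ASXL1 and O-GlcNAc. This is a description, since neighbouring windows are not independent.

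Some stretches were nearly or wholly without peaks. The window from 26.8 to 26.9 Mb held no peak of any list, and the gap around it ran from position 26799333 to 26923753 (124 kb). The window from 27.9 to 28 Mb held 4 ASXL1, 3 O-GlcNAc and 0 FOXK1 peaks, and the widest FOXK1 gap, 165 kb, lay at 27870453 to 28035615. From 26.6 to 26.7 Mb, ASXL1 had 16 peaks while FOXK1 and O-GlcNAc had 2 each, and no region of all 3 lists lay there. The widest gap between regions of all 3 lists was 204 kb, from 26333005 to 26537317, against a median gap of 12.3 kb between neighbours. An empty stretch is one without a listed peak at a score of at least 50.

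**Figure D2:**
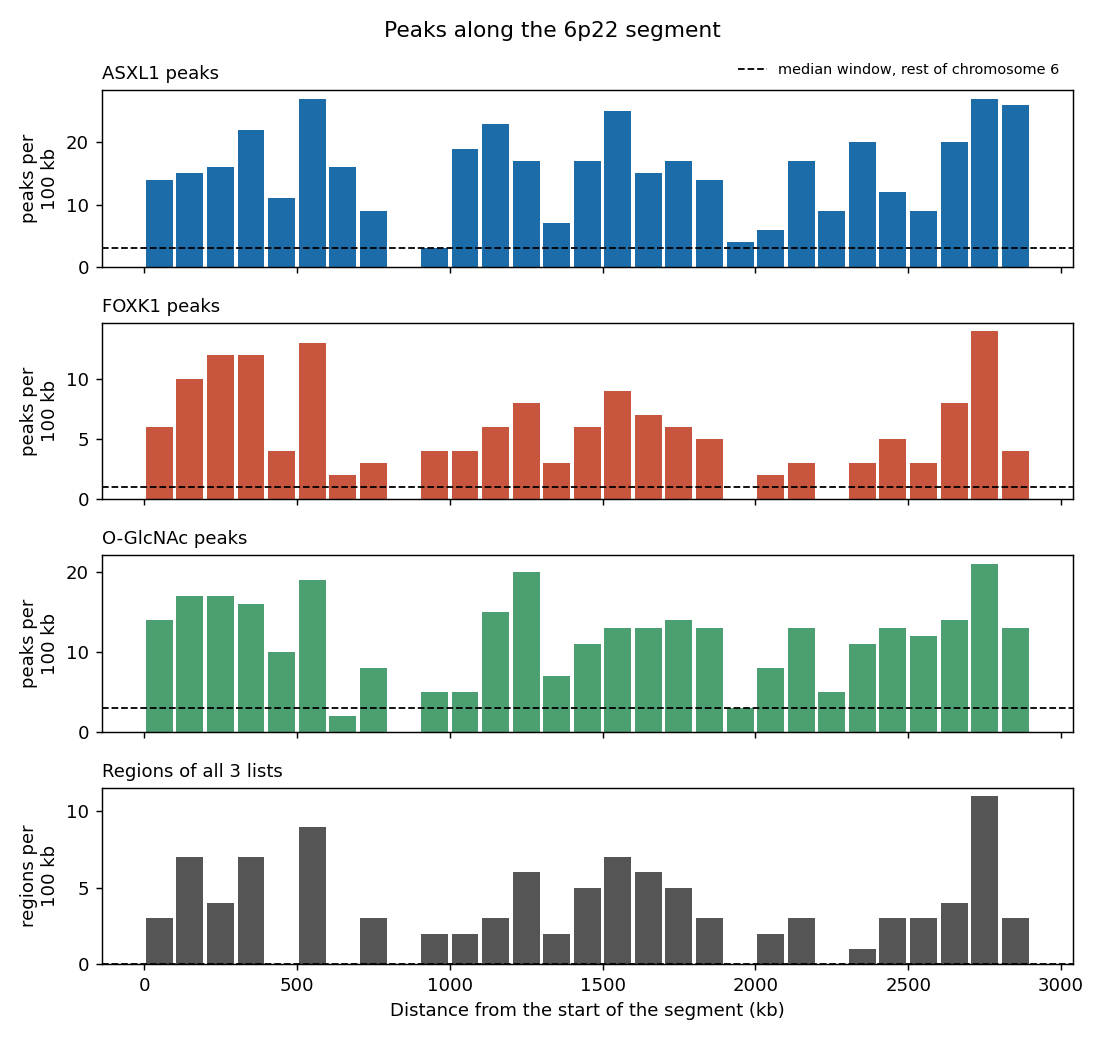
Number of peaks of each list, and of regions held by all 3 lists, in 100 kb windows by distance from the start of the segment in kb. Bars are single counts without error, and the dashed line is the median window of the rest of chromosome 6 (3, 1, 3 and 0 from top to bottom), which most windows of the segment exceed. No bar stands in any panel 800 to 900 kb from the start.

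ASXL1 peaks had far higher scores in the segment than elsewhere on the chromosome. The score is the authors' value from the peak caller and was compared only within a list. ASXL1 scores in the segment ran from 50.2 to 3207.42 with a median of 173, and those of the rest of the chromosome had a median of 72.2. Of the 437 ASXL1 peaks, 254 scored at least 100 (58.1%), against 29.5% in the rest of the chromosome and 33.0% in the whole list. The difference from the rest was 28.6 percentage points (Newcombe interval 23.8 to 33.3). At a score of at least 1000 the segment held 97 ASXL1 peaks (22.2% of its own), against 3.76% of ASXL1 peaks in the rest. These 97 were 28.5% of all ASXL1 peaks of chromosome 6 with such a score.

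FOXK1 and O-GlcNAc peaks also scored higher in the segment. FOXK1 scores in the segment ran from 50.01 to 892.94 with a median of 104, against a median of 73.2 in the rest. A score of at least 100 was reached by 84 of 162 FOXK1 peaks (51.9%), against 31.7% in the rest and 33.9% in the whole list, a difference of 20.1 points from the rest (12.2 to 27.98). O-GlcNAc scores ran from 50.02 to 2004.22 with a median of 93.0, against 66.0 in the rest. For O-GlcNAc, 155 of 332 peaks scored at least 100 (46.7%), against 17.6% in the rest and 21.2% in the whole list, a difference of 29.04 points (23.7 to 34.5). The neighbouring stretch from 29 to 34 Mb had shares at this score between those of the segment and the rest, with 50.4% for ASXL1 (Wilson interval 46.0 to 54.8), 45.1% for FOXK1 (34.05 to 56.6) and 35.0% for O-GlcNAc (29.6 to 40.8). The FOXK1 interval overlaps that of the segment (44.2 to 59.4), and so does that of ASXL1 (53.4 to 62.7). By median score among the windows of the segment's length that had at least 20 peaks of the list, the segment ranked 1 of 886 for ASXL1, 19 of 466 for FOXK1 and 24 of 923 for O-GlcNAc.

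The segment's share of chromosome 6's peaks grew with the score up to 200 for each list. For ASXL1 it was 11.7% at a score of at least 100, 17.7% at 200, 24.4% at 500 and 28.5% at 1000. For FOXK1 it was 13.0% at 100, 17.2% at 200 and 14.6% at 500 (6 of 41 peaks). For O-GlcNAc it was 11.7% at 100, 17.4% at 200 and 12.2% at 500 (19 of 156). These shares all exceeded the segment's 1.70% of the length. At 1000, FOXK1 had 0 of 9 peaks in the segment and O-GlcNAc 1 of 56 (1.79%), too few to compare. One score also marks a different part of each list, so the lists' shares at one score are not on a common scale. Between 29 and 34 Mb there were 37 of 486 ASXL1 peaks (7.61%) and, for O-GlcNAc, 17 of 277 (6.14%) at a score of at least 1000.

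Peaks of the segment were wider than those of the rest of the chromosome. The median ASXL1 width was 415 bp against 251 bp in the rest. FOXK1 peaks had medians of 597 and 412 bp, and O-GlcNAc peaks of 362 and 227 bp. Between 29 and 34 Mb the medians were 432 bp (ASXL1), 587 bp (FOXK1) and 318 bp (O-GlcNAc). ASXL1 peaks covered 8.08% of the segment and 1.49% of the rest. The covered share was 3.94% against 0.539% for FOXK1 and 5.06% against 1.15% for O-GlcNAc.

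The highest ASXL1 score, 3207.42, belonged to positions 26520702 to 26521768, a peak 1067 bp wide that overlapped an O-GlcNAc peak and no FOXK1 peak. In all, 12 ASXL1 peaks of the segment scored 3100 or more, and the other 11 were listed at exactly 3100. The order of these 11 is uncertain, as is their place relative to the peak at 3207.42. The widest of these lay at 27099624 to 27102548 (2925 bp), 26156289 to 26158946 (2658 bp), 27113072 to 27115673 (2602 bp) and 26122670 to 26125056 (2387 bp). Each of these overlapped both FOXK1 and O-GlcNAc. The 5 strongest FOXK1 peaks all overlapped both other lists. They lay at 27520616 to 27521641 (score 892.94), 28615913 to 28616860 (719.05), 26311698 to 26312414 (689.48), 26568839 to 26569248 (544.2) and 28180175 to 28181019 (524.16). None of them overlapped the 5 strongest peaks named for ASXL1 or O-GlcNAc.

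The strongest O-GlcNAc peak, at 28048090 to 28049186, scored 2004.22 and overlapped ASXL1 and FOXK1. It stood well above the next, which lay at 26103866 to 26104598 with a score of 995.43 and also overlapped both. The peaks at 28510067 to 28511002 (877.14) and 28219843 to 28220272 (720.89) overlapped ASXL1 alone, and the peak at 26031805 to 26032585 (721.03) overlapped both other lists. All 5 thus met an ASXL1 peak, and 3 met a FOXK1 peak.

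Most FOXK1 peaks of the segment met an ASXL1 peak. Of 162 FOXK1 peaks, 139 overlapped an ASXL1 peak by at least 1 bp (85.8%, Wilson interval 79.6 to 90.3), against 39.9% in the rest of chromosome 6 (37.6 to 42.2) and 42.3% in the whole list. The difference from the rest was 45.9 points (39.3 to 51.0). An O-GlcNAc peak was met by 116 FOXK1 peaks (71.6%, 64.2 to 78.0), against 36.9% in the rest and 37.8% in the whole list, a difference of 34.7 points (27.0 to 41.5). Of O-GlcNAc peaks, 220 of 332 overlapped ASXL1 (66.3%, 61.0 to 71.1), against 21.1% in the rest and 27.1% in the whole list, a difference of 45.2 points (39.9 to 50.2), which was 29.2 points (21.6 to 34.7) in lists cut to their 10000 highest scores.

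Seen from the longer lists the shares were lower but again above the rest. Of 437 ASXL1 peaks, 206 overlapped O-GlcNAc (47.1%, 42.5 to 51.8), against 21.3% in the rest and 22.4% in the whole list, a difference of 25.9 points (21.1 to 30.6). That difference was −2.97 points (−11.5 to 5.29) when every list was cut to its 10000 highest scores. FOXK1 was met by 145 ASXL1 peaks (33.2%, 28.9 to 37.7), against 11.7% in the rest and 10.5% in the whole list, a difference of 21.5 points (17.2 to 26.1). It was met by 130 O-GlcNAc peaks (39.2%, 34.1 to 44.5), against 10.5% in the rest and 11.1% in the whole list, a difference of 28.7 points (23.5 to 34.1). The part of the denser and wider peaks of the segment in these shares was not tested, beyond the classes of score and width below.

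Between 29 and 34 Mb, the shares of FOXK1 peaks lay between those of the segment and the rest, with 67.6% in ASXL1 (56.1 to 77.3) and 66.2% in O-GlcNAc (54.6 to 76.1). O-GlcNAc peaks there overlapped ASXL1 in 55.6% of cases (49.7 to 61.3) and FOXK1 in 18.4%, and 33.1% of ASXL1 peaks met O-GlcNAc. The share of ASXL1 peaks that met FOXK1 there was 10.7% (8.25 to 13.8), below the 33.2% of the segment.

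Since overlap rises with score in these lists, peaks were also compared within classes of score. Among FOXK1 peaks scoring 50 to 100, 71.8% of 78 overlapped ASXL1 in the segment and 26.4% of 1214 in the rest, a difference of 45.4 points (34.3 to 54.5). At 100 to 200 the shares were 97.8% and 60.9%, and at 200 or more all 39 FOXK1 peaks of the segment overlapped ASXL1, against 85.1% of 188. In O-GlcNAc, FOXK1 peaks differed by 35.1 points (23.7 to 45.5) at scores of 50 to 100 and 24.1 points (9.47 to 34.6) at 100 to 200. At 200 or more the shares were 84.6% and 74.5%, and the interval of the difference spans 0 (10.1 points, −5.29 to 20.7). Weak O-GlcNAc peaks, scoring 50 to 100, overlapped ASXL1 in 40.7% of 177 cases in the segment and 11.4% in the rest. At O-GlcNAc scores of 200 or more, the shares in ASXL1 were 97.5% and 93.9% (3.59 points, −2.97 to 7.01). The shares of the same peaks in FOXK1 were 74.7% and 44.7%, a difference of 30.003 points (18.3 to 39.7). At O-GlcNAc scores of 50 to 100, 16.9% overlapped FOXK1 in the segment and 5.69% in the rest (11.3 points, 6.404 to 17.5).

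Weak ASXL1 peaks of the segment, in contrast, met the other lists about as often as elsewhere. At ASXL1 scores of 50 to 100, 9.84% overlapped O-GlcNAc in the segment and 9.06% in the rest, a difference of 0.779 points (−2.85 to 6.02). For FOXK1 the shares were 7.10% and 5.99% (1.12 points, −1.88 to 5.83). At ASXL1 scores of 100 to 200, 22.9% and 27.5% overlapped O-GlcNAc (−4.58 points, −14.6 to 9.32). The shares in FOXK1 were 29.2% and 19.7% (9.44 points, −1.80 to 23.7). At ASXL1 scores of 200 or more, FOXK1 was met by 57.3% of 206 ASXL1 peaks in the segment and 30.9% of 955 in the rest, a difference of 26.4 points (18.9 to 33.5). O-GlcNAc was met by 85.9% and 73.5% of the same peaks (12.4 points, 6.37 to 17.4).

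Classes of width were compared in the same way. ASXL1 peaks under 300 bp overlapped FOXK1 in 5.77% of cases in the segment and 4.89% in the rest (0.882 points, −1.91 to 5.75). At 600 bp or more the shares were 57.2% and 23.9%, a difference of 33.4 points (24.6 to 41.7). FOXK1 peaks of 300 to 600 bp overlapped ASXL1 in 75.3% and 27.5% of cases (47.8 points, 36.8 to 56.4). At 600 bp or more all 79 FOXK1 peaks of the segment did, against 82.2% (17.8 points, 12.1 to 21.8), and the 6 FOXK1 peaks under 300 bp were too few to compare (13.5 points, −11.3 to 50.6). For O-GlcNAc peaks in ASXL1 the difference was 3.41 points (−1.57 to 5.47) at 600 bp or more and 37.1 points at 300 to 600 bp (29.3 to 42.8).

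**Figure D3:**
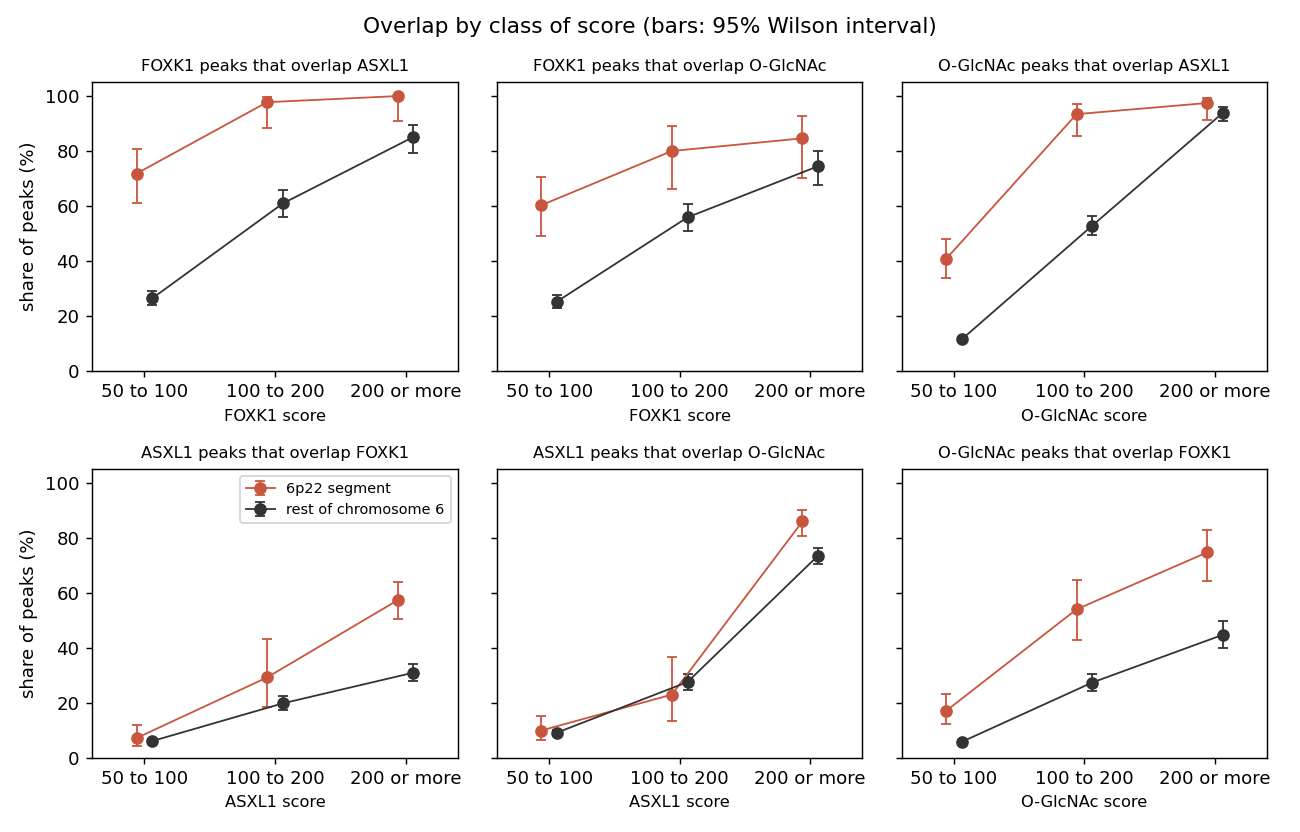
Share of peaks (%) that overlap another list, by class of the peak's own score, in the 6p22 segment and in the rest of chromosome 6, with 95% Wilson intervals as bars. FOXK1 peaks of the segment lie above the rest in ASXL1 in each class (71.8% against 26.4% in the lowest), while ASXL1 peaks part from the rest only in the highest class for O-GlcNAc (85.9% against 73.5%).

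Merging gave 543 regions in the segment. All 3 lists met in 104 of them (19.2%, Wilson interval 16.1 to 22.7), against 476 of 12466 in the rest of the chromosome (3.82%, 3.50 to 4.17). ASXL1 and O-GlcNAc alone held 84 regions (15.5% against 6.63%), ASXL1 and FOXK1 alone 23 (4.24% against 1.76%), and FOXK1 and O-GlcNAc alone 4 (0.737% against 1.404%). A single list held the others, with ASXL1 in 203, O-GlcNAc in 107 and FOXK1 in 18. Regions of O-GlcNAc alone made up 19.7% of the segment's regions, against 40.4% in the rest, while those of ASXL1 alone were 37.4% against 38.8%. Per Mb, however, both were more frequent in the segment, with 36.9 against 30.01 for O-GlcNAc alone and 70 against 28.8 for ASXL1 alone.

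Peaks found in a single list were mostly weak in the segment, as in the rest of the chromosome. Only 18 of 162 FOXK1 peaks overlapped neither other list (11.1%, against 50.2% in the rest), and the strongest of them, at 26365101 to 26365464, scored 117.93. Of 107 O-GlcNAc peaks alone, 6 scored at least 100, against 343 of 5042 in the rest, with the strongest at 28188017 to 28188407 (369.15). Of 203 ASXL1 peaks alone, 45 scored at least 100, against 841 of 4834 in the rest, and the strongest, at 28072307 to 28073040, scored 587.81. Their median scores (ASXL1 66.9, FOXK1 60.7, O-GlcNAc 63.5) were close to those of such peaks in the rest of the chromosome (66.7, 62.9 and 63.4).

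Regions of all 3 lists had higher ASXL1 scores in the segment than elsewhere on the chromosome. In the 104 regions of the segment, the highest ASXL1 score per region ran from 50.5 to 3100 with a median of 1518 (quartiles 792 and 2285). In the 476 regions of the rest the median was 224 (107 and 659). The FOXK1 medians were 124 (87.2 and 229) and 120 (77.2 and 220), with overlapping quartile ranges. The O-GlcNAc medians were 206 (126 and 341) and 135 (83.1 and 244), and these quartile ranges overlap as well. An ASXL1 score of at least 1000 was reached in 69 of the 104 regions (66.3%) and in 82 of the 476 (17.2%). An O-GlcNAc score of that size was reached in 1 of the 104 (0.962%) and in 31 of the 476 (6.51%), and a FOXK1 score of that size in 0 and 7.

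Regions were also compared at matched ASXL1 scores. At ASXL1 scores of 50 to 100, FOXK1 was held by 3.45% of the segment's regions (Wilson interval 1.59 to 7.32) and 5.27% of those in the rest (4.65 to 5.96). At 100 to 200 the shares were 20.9% (11.4 to 35.2) and 18.6% (16.2 to 21.2), and at 200 to 1000 they were 37.9% (29.1 to 47.5) and 29.6% (26.3 to 33.1). The intervals of the segment and the rest overlapped in these 3 classes and were apart in the highest. Of 94 regions with an ASXL1 score of 1000 or more, 73 held FOXK1 (77.7%, Wilson interval 68.2 to 84.9), against 83 of 242 in the rest (34.3%, 28.6 to 40.5). O-GlcNAc was held by 90 of the 94 (95.7%, 89.6 to 98.3) and by 220 of the 242 (90.9%, 86.6 to 93.9). Where O-GlcNAc was present, its median score was 247 in the segment (quartiles 147 and 395, highest 995.43) and 369 in the rest (203 and 738, highest 3030.94). The FOXK1 medians were 154 (92.1 and 259) and 140 (92.0 and 233). The quartile ranges overlap in both comparisons, and there is no replicate for either.

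**Figure D4:**
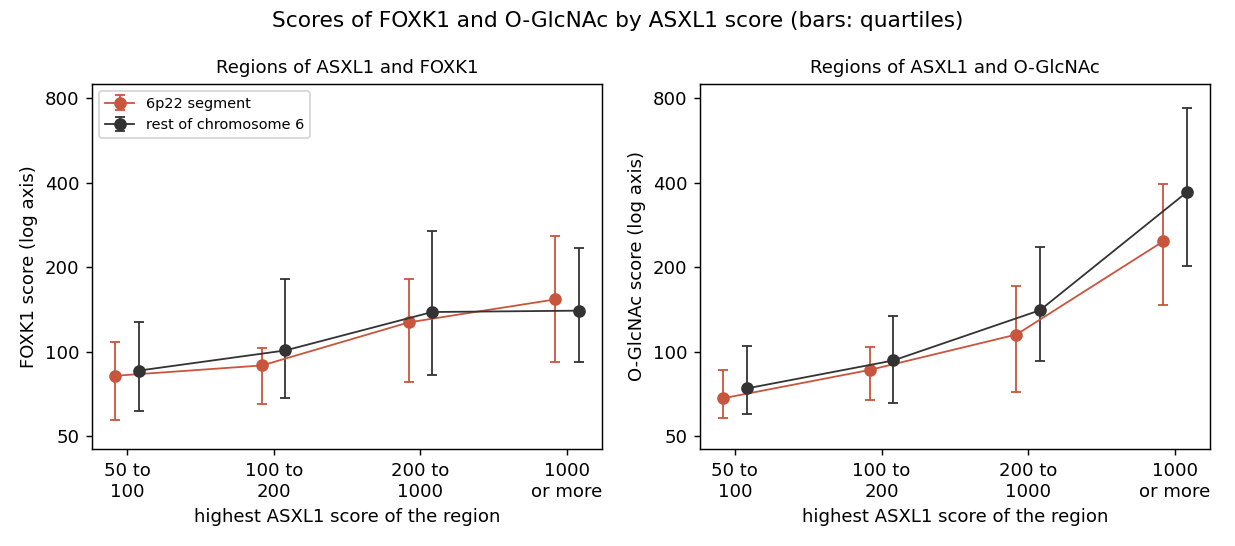
Scores of FOXK1 (left) and O-GlcNAc (right) on a log axis, by the highest ASXL1 score of the merged region, for regions that hold both lists. Points are medians and bars quartiles, and at ASXL1 scores of 1000 or more the O-GlcNAc median is 247 in the segment and 369 in the rest of chromosome 6, with overlapping quartile ranges.

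Within the segment, ASXL1 and O-GlcNAc scores had a Spearman's rho of 0.654 over 188 regions held by both. It was 0.333 for ASXL1 and FOXK1 over 127 regions and 0.315 for FOXK1 and O-GlcNAc over 108. In the rest of the chromosome these values were 0.607, 0.311 and 0.321. They are descriptions across regions of single libraries.

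The region with the best joint rank of the 3 scores lay at 26103827 to 26105011, where ASXL1 scored 3100, FOXK1 410.16 and O-GlcNAc 995.43. The next, at 26122670 to 26125056, had 3100, 334.15 and 664.62, and held 1 ASXL1 peak over 2 FOXK1 and 2 O-GlcNAc peaks. The region at 26312455 to 26314069 had 2790.59, 429.77 and 613.77. At 26156289 to 26158946 the scores were 3100, 449.48 and 331.21. At 27520590 to 27521706, the place of the strongest FOXK1 peak, they were 2064.76, 892.94 and 534.16. At 26204238 to 26206746, 1 wide ASXL1 peak lay over 3 FOXK1 and 4 O-GlcNAc peaks, with top scores of 3100, 217.71 and 616.07.

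Of the other regions among the 10 with the best joint rank, the one at 27059294 to 27060422 scored 2441.91, 287.73 and 646.81 for ASXL1, FOXK1 and O-GlcNAc. At 27804440 to 27806925 the scores were 3100, 221.15 and 528.35, and at 27113072 to 27115673 they were 3100, 191.82 and 572.34. The region at 28556833 to 28557852, with 2892.26, 273.75 and 467.68, was the only one of these 10 beyond 28 Mb. These regions ranged from 1020 to 2658 bp in length, and 5 of the 10 lay between 26.1 and 26.4 Mb.

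The edges of the segment were set by position alone. The last peaks before it, at 25991911 to 25993453 for ASXL1 (score 1138.74), 25992500 to 25993590 for FOXK1 (121.68) and 25992606 to 25993356 for O-GlcNAc (162.43), overlapped each other. The first peaks inside scored 60.28 for ASXL1 at 26005194 to 26005410, 302.06 for FOXK1 at 26026085 to 26027760 and 50.69 for O-GlcNAc at 26013997 to 26014226. At the other edge, the last ASXL1 peak inside scored 894.52 (28890895 to 28892193) and the first beyond it 179.85 (28907281 to 28908606). For FOXK1 these values were 92.32 (28863830 to 28865378) and 400.12 (28908182 to 28909690).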

How the data were processed

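The 3 deposited files are peak lists of single libraries with a score per peak. Per the submitters' processing notes, Bowtie2 2.0.0, MACS 1.4 and the build hg19 were used. The deposited score is the authors' peak caller's own value, starting at 50, and its scale is not given in the sources used here. Read filters, the treatment of reads that map to several places (of weight for similar histone and tRNA gene copies), caller settings and depth are not given in the sources used here. The 2 input libraries were not analysed here.

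With Python 3.11.15, numpy 2.4.6, pandas 2.3.3 and scipy 1.17.1, peaks were placed by their centre, and overlaps, merged regions and densities were counted. Positions count from 1. The chromosome was taken to end at the highest peak end, 170921961. Shares carry 95% Wilson intervals, differences Newcombe intervals and density ratios exact binomial intervals. The counting was tested on simulated peaks. Named positions were the 5 highest-scoring peaks per list (ties by width), the 10 regions of all 3 lists whose score ranks had the lowest sum, the 3 fullest 100 kb windows per list and the widest gap between regions of all 3. Other gaps, sparse windows, single-list peaks and edge peaks were named after their values were seen. Members, lists and rules were chosen with earlier results of these data known. The rule for named genes needed an hg19 annotation and was not used. Classes of score and width were chosen after seeing the data.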

Additional observations from a re-analysis of the deposited data

How the results depend on the processing

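No paired analysis was possible because there was a single library per antibody, and none was left out in turn for the same reason. The alternatives for histone and tRNA gene starts were not run, since no annotation of hg19 was used here. Of 82 other values under alternatives, 58 stayed within the main interval (or within 1.5 times the main count), 23 moved and 1 reversed. Values follow for ASXL1, FOXK1 and O-GlcNAc in that order. Density ratios were 7.71, 8.63 and 7.67 at a score of at least 100, and 17.3, 8.03 and 11.6 in lists cut to their 10000 highest scores. Against the rest of chromosomes 1 to 22 and X they were 4.88, 7.94 and 4.43, and by base pairs covered 5.43, 7.30 and 4.41. The O-GlcNAc score difference was 18.1 points at a score of at least 200. At a score of at least 100, the overlap difference was 36.7 points (O-GlcNAc in ASXL1), 18.5 (ASXL1 in O-GlcNAc) and 21.4 (O-GlcNAc in FOXK1). With the 10000 highest-scoring peaks it was 66.5 points for FOXK1 in ASXL1, 29.2 for O-GlcNAc in ASXL1 and 28.5 for ASXL1 in FOXK1, and it reversed to −2.97 for ASXL1 in O-GlcNAc. Without the widest 1% of peaks it was 38.8 for FOXK1 in ASXL1, and against the rest of chromosomes 1 to 22 and X 39.3 for O-GlcNAc in ASXL1. Regions of all 3 lists numbered 59 at a score of at least 100 and 58 with the 10000 highest-scoring peaks, as shorter lists give fewer. Beyond that the cause was not tested. The depth is unknown, so a peak counts as unshared when the other list, which starts at a score of 50, has none there.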

Other observations

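The distance to the nearest peak was shorter in the segment than in the rest of chromosome 6, which a higher density brings by itself, and spacing beyond the density was not tested. The nearest peak of the same list lay within 1 kb for 246 of 437 ASXL1 peaks (56.3%, 95% Wilson interval 51.6 to 60.9), against 31.8% in the rest. For O-GlcNAc it did so for 150 of 332 peaks (45.2%, 39.9 to 50.6), against 17.4%. For FOXK1 it did so for 56 of 162 peaks (34.6%, 27.7 to 42.2), against 12.1%. In regions of all 3 lists, the centres of the strongest ASXL1 and O-GlcNAc peaks were a median of 108 bp apart in the segment (quartiles 42.5 and 232) and 75 bp in the rest (30.9 and 156). For ASXL1 and FOXK1 the medians were 97.2 bp (48.5 and 247) and 81.2 bp (34.5 and 158), and for FOXK1 and O-GlcNAc 115 bp (57.2 and 257) and 85.2 bp (37.4 and 149). The quartile ranges of the segment and the rest overlapped for each pair. The ASXL1 peaks of these regions were wider in the segment, with medians of 716.5 against 528 bp, and the part of width in these distances was not tested.

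In blocks of 500 kb, FOXK1 had 88 peaks per Mb at 26 to 26.5 Mb and 26 at 28 to 28.5 Mb, while ASXL1 had 156 and 128 in the same blocks. The median ASXL1 score was highest at 27.5 to 28 Mb, at 389, and lowest at 28 to 28.5 Mb, at 93.2. The last 400 kb of the segment, from 28.5 to 28.9 Mb, had the most ASXL1 peaks per Mb of these blocks (205) and the most regions of all 3 lists per Mb (52.5).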
